A study of Homo sapiens with 18 samples.

Results

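The comparison covers CHL1 melanoma cells kept for 6 days in palbociclib (CDK4/6i, an inhibitor of CDK4 and CDK6) at 1 μM against CHL1 cells kept for 72 hours in DMSO, the solvent control. It was chosen by its sample labels and rests on 4 of the 18 sequenced libraries, 2 for each group. CHL1 is an established human melanoma cell line, listed as WT in the labels and described in the methods of the study as wild type for BRAF and NRAS and mutant for p53. The study grew CHL1 and a second melanoma line, A375, with palbociclib or with the PRMT5 inhibitor GSK3326595 (500 nM, 72 hours), and sequenced poly-A RNA to ask how gene expression and splicing respond to each drug. For CHL1 the 72-hour DMSO group is the only control, so 3 further days in culture and 6 days of drug cannot be told apart in this comparison. The 2 CHL1 libraries of 72 hours of CDK4/6i, which share that control, are given beside it. The labels do not say whether replicates were separate cultures, so the p-values measure only the spread between these libraries.

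CDK4 and CDK6, together with a D-type cyclin, phosphorylate the retinoblastoma protein RB in G1. Hypophosphorylated RB and its relatives p107 (RBL1) and p130 (RBL2) bind E2F transcription factors, and p107 and p130 do so together with the MuvB complex. This keeps S-phase and mitotic genes off, and palbociclib acts by stopping the phosphorylation. A cell held in this way for days can enter quiescence or a senescence-like state, which is known for loss of lamin B1, a larger lysosomal compartment and secretion of growth factors and cytokines.

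Library totals were 30013952 and 28823307 reads on genes in the control, 27588432 and 28223909 at 72 hours, and 27099002 and 20509245 at 6 days. Replicates varied more at 6 days, with a biological coefficient of variation of 0.182 against 0.0936 in the control, and the library nearest to each 6-day library was one of 72 hours rather than its replicate. The log2 difference between GC-rich and GC-poor genes, measured from each gene's median over the 8 CHL1 libraries, was 0.014 and 0.357 at 6 days. It was 0.416 and 0.097 at 72 hours and 0.034 and 0.017 in the controls. The 2 CHL1 libraries of the PRMT5 inhibitor, which share the estimate of spread, stood apart at -2.54 and -2.03, and without them the DEGs at 6 days numbered 4964 in place of 3443. The part of this difference in the results was tested only through the GC correction given among the limits. In a bulk sample, fewer cells that express a gene and less RNA of that gene per cell cannot be told apart.

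Of 20705 genes, 3443 were differentially expressed genes (DEGs) at 6 days, 1828 up-regulated and 1615 down-regulated, by edgeR's quasi-likelihood test at a Benjamini-Hochberg adjusted p below 0.05. These are 16.6% of the genes tested, 8.83% up and 7.8% down, and each count of list members is to be read against them. In all 3443 DEGs both 6-day libraries lay beyond both controls, as they did, in either direction, in 32% (above) and 28.6% (below) of all genes. The typical DEG moved by 0.98 on the log2 scale (median of absolute values), with 1100 rising and 579 falling by at least 1 on the log2 scale, and the median over all genes was 0.03. Among 27 gene lists, the highest shares of down-regulated members were in histones, mitosis and DNA replication, and the highest shares of up-regulated members in the lysosome, growth arrest and MHC class I lists. The number of DEGs was 1119 without control replicate 1, 631 without control replicate 2 and 2295 without 6-day replicate 2.

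**Figure D1:**
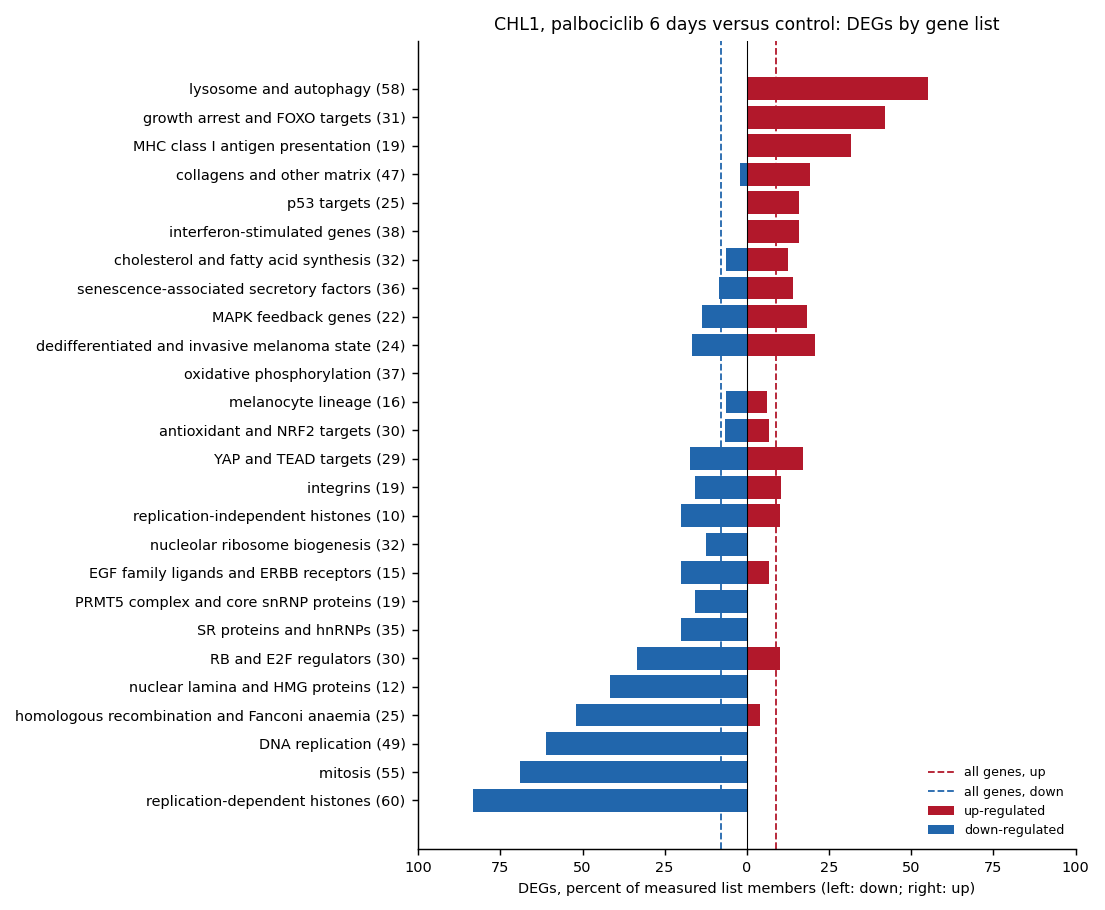
Percent of the measured members of each gene list that were up-regulated (red, to the right) or down-regulated (blue, to the left) at 6 days of palbociclib versus control. The list of markers of other cell types is not drawn. The number measured is in parentheses, and dashed lines give the share over all genes (8.83% up, 7.8% down). Replication-dependent histones stand at 83.3% down and the lysosome list at 55.2% up, and the oxidative phosphorylation list has no bar.

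Of the drug targets, CDK4 was not called and CDK6 rose. CDK4 had 75 and 59.4 CPM (reads of a gene relative to the TMM-scaled library total) in the control and 65.9 and 59.6 at 6 days, and these ranges overlap (log2 fold change -0.10, SE 0.19, edgeR adjusted p = 0.787). CDK6 had 10.9 and 9.06 CPM in the control and 14.5 and 15.6 at 6 days, a rise of 0.59 on the log2 scale (SE 0.19, edgeR adjusted p = 0.0477) that passed in 0 of the 4 fits with a library left out. CCND1, the cyclin D1 gene, went from 287 and 303 CPM in the control to 751 and 713 at 6 days, with 754 and 738 at 72 hours. Both treated groups lay far above the control, and the log2 fold change at 6 days was 1.31 (SE 0.15, edgeR adjusted p = 0.000533). CCND2 stood at 3 reads or fewer per library in every group, and CCND3 was not called (-0.13, edgeR adjusted p = 0.661).

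Among 30 measured regulators of the RB and E2F axis, 3 rose (CCND1, CDKN1B, CDK6) and 10 fell, with 17 not called. CDKN1B, which encodes the CDK inhibitor p27, had 70.6 and 63.7 CPM in the control, 87.6 and 85.6 at 72 hours and 147 and 109 at 6 days. Its rise at 6 days was 0.93 on the log2 scale (SE 0.17, edgeR adjusted p = 0.00456). The value at 72 hours was 0.37 (edgeR adjusted p = 0.253). The direct difference between 6 days and 72 hours, 0.56 on the log2 scale, was not called (edgeR adjusted p = 0.408). CDKN1A, the p21 gene, did not separate from the control, with 18.3 and 17.1 CPM against 23.9 and 16.4 (log2 fold change 0.18, edgeR adjusted p = 0.696), and CDKN1C (p57) fell by 0.90 (edgeR adjusted p = 0.0261).

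The falling regulators are largely genes that E2F is known to drive. MYBL2 (B-MYB, the MuvB partner that activates mitotic genes) had 209 and 175 CPM in the control and 79.6 and 66.0 at 6 days, or -1.40 on the log2 scale (SE 0.21, edgeR adjusted p = 0.00154). CCNA2 (cyclin A2) went from 63.7 and 52.0 to 28.3 and 20.8 CPM (-1.24, SE 0.19, edgeR adjusted p = 0.00206). RBL1 stood at 115 and 111 CPM in the control, 61.8 and 66.2 at 72 hours and 57.2 and 43.7 at 6 days (-1.16, SE 0.18, edgeR adjusted p = 0.00179). In each of these genes the treated libraries lay well below both controls. FOXM1, E2F2, E2F7, E2F5, CCNE2 (cyclin E2) and the MuvB subunit gene LIN52 fell by 0.68 to 1.05, whereas E2F1 (-0.29, edgeR adjusted p = 0.354), RB1 (0.47, edgeR adjusted p = 0.10), RBL2 (0.11) and CCNE1 (-0.03) were not called. Without control replicate 1, control replicate 2 or 6-day replicate 2, the number of falling regulators was 4, 4 and 5, and without control replicate 2 the number rising was 1. With the GC correction 6 rose.

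**Figure D2:**
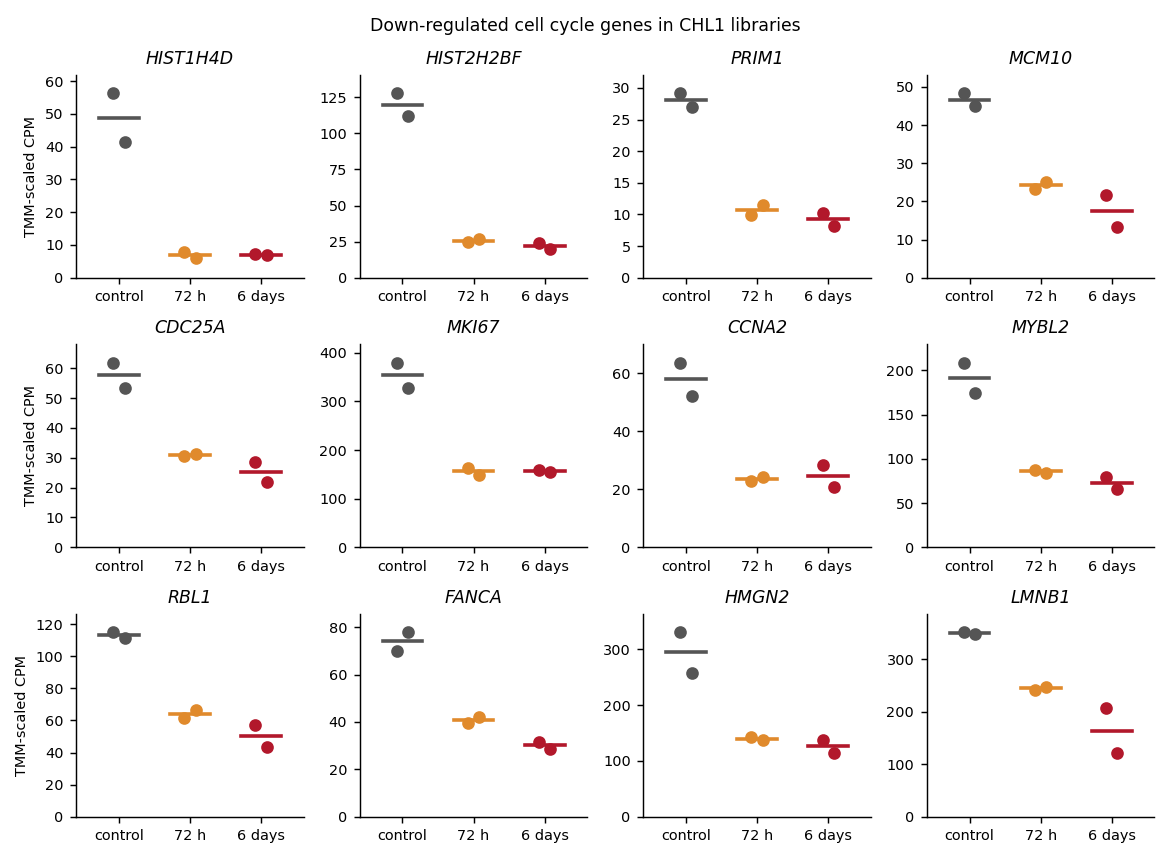
TMM-scaled CPM (linear axes from 0) of 12 down-regulated genes in each CHL1 library, with points for the 2 replicates and a line at their mean, for control (grey), 72 hours (orange) and 6 days (red) of palbociclib. In each panel all treated libraries lie below both controls; MKI67 is at 159 and 154 CPM at 6 days against 380 and 327 in the control.

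Replication-dependent histone genes, which package newly made DNA and whose mRNAs accumulate in S phase, had the highest share of falling members. Of 60 measured, 50 were down-regulated (83.3%, against 7.8% of all genes) and 0 up-regulated, with a median log2 fold change of -1.72. Their summed level was 4466 and 3615 CPM in the control libraries, 1577 and 1515 at 72 hours, and 1557 and 1268 at 6 days, so the treated libraries lay well below the control. All classes took part, with 4 of 5 H1, 12 of 14 H2A, 14 of 16 H2B, 11 of 13 H3 and 9 of 12 H4 genes down-regulated, and class medians between -2.17 for H1 and -1.30 for H4. The libraries were selected for poly-A RNA, and most of these mRNAs end without a poly-A tail, so only captured transcripts were counted, and reads shared by near-identical copies make single members uncertain.

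HIST1H4D had 56.4 and 41.3 CPM in the control, 7.90 and 5.94 at 72 hours and 7.12 and 7.01 at 6 days (log2 fold change -2.79, SE 0.26, edgeR adjusted p = 0.000238). HIST3H2BB (19.9 and 18.3 against 3.06 and 2.69 CPM) and HIST2H2BF (128 and 112 against 23.8 and 20.2 CPM) fell by 2.73 and 2.44. HIST1H2BM went from 5.17 and 3.78 CPM to 1.22 and 0.397 (-2.42, SE 0.43, edgeR adjusted p = 0.00368). As in every DEG at 6 days, none of the 6-day values of these 4 genes reached the control range. By contrast HIST1H2AC had 87.5 and 69.6 CPM in the control and 83.8 and 75.6 at 6 days (log2 fold change 0.02), and HIST1H2BK had 231 and 186 against 170 and 117 (-0.54, edgeR adjusted p = 0.0907). The linker histones HIST1H1B and HIST1H1E fell by 2.22 and 1.95.

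Of 10 histone genes that are expressed outside S phase, 2 fell and 1 rose. H2AFX, whose product marks DNA breaks when phosphorylated, fell by 0.77 and H2AFY (macroH2A1) by 0.50, calls that were lost in every fit with a library left out. H2AFY2 (macroH2A2, a variant known from repressed chromatin) rose from 0.670 and 0.493 to 1.58 and 2.03 CPM, a log2 fold change of 1.62 (SE 0.32, edgeR adjusted p = 0.00645), a call lost without control replicate 2. H3F3A and H3F3B, which encode the variant H3.3, had log2 fold changes of -0.08 and -0.45 and were not called.

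Genes of DNA replication fell in 30 of 49 members (61.2%), with 0 up-regulated and a median log2 fold change of -0.70. The fall reached origin licensing and firing (8 of 13), the fork and chromatin assembly (16 of 24) and nucleotide synthesis (5 of 6), but only 1 of the 6 subunits of the MCM2 to MCM7 helicase, MCM7. PRIM1, the catalytic subunit of primase, had 29.2 and 27.0 CPM in the control, 9.93 and 11.5 at 72 hours and 10.3 and 8.20 at 6 days (log2 fold change -1.60, SE 0.22, edgeR adjusted p = 0.00108). MCM10, which acts in origin firing, went from 48.4 and 44.9 to 21.6 and 13.3 CPM (-1.42, SE 0.21, edgeR adjusted p = 0.00170). KIAA0101, a PCNA-binding factor, and CLSPN, the adaptor of the replication checkpoint, fell by 1.37 and 1.35. GINS2, TYMS, PCNA, PRIM2, ORC1, CDC45 and RRM2 were likewise down-regulated, by 0.97 to 1.32. The other MCM subunits had log2 fold changes between -0.50 and -0.18. The count of falling members was 9 without control replicate 1, 16 without control replicate 2 and 19 without 6-day replicate 2.

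Mitotic genes fell in 38 of 55 members (69.1%), with 0 up-regulated and a median log2 fold change of -0.75. MKI67, the Ki-67 proliferation marker, had 380 and 327 CPM in the control, 163 and 149 at 72 hours and 159 and 154 at 6 days (-1.17, SE 0.17, edgeR adjusted p = 0.00158). KIF20A, a kinesin of cytokinesis, went from 70.2 and 59.3 to 28.3 and 24.6 CPM (-1.29, SE 0.17, edgeR adjusted p = 0.000946). CDC25A, the phosphatase that activates cyclin-dependent kinases, went from 61.9 and 53.5 to 28.7 and 21.9 CPM (-1.19, SE 0.19, edgeR adjusted p = 0.00208). All treated libraries lay below both controls in these genes, and the fitted levels were 2.26-fold to 2.45-fold lower.

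By role, 9 of 10 kinesins, 3 of 4 condensin subunits, 7 of 11 mitotic kinases, cyclins and CDC25 genes, and 8 of 13 centromere, kinetochore and checkpoint genes were down-regulated. PLK1 and AURKB fell by 1.06 and 0.94, and the spindle-associated NUSAP1 by 1.08. CDK1 was not called, with 100 and 88.9 CPM in the control against 84.4 and 52.2 (log2 fold change -0.47, edgeR adjusted p = 0.153), nor were TTK (-0.03) and MAD2L1 (0.29) of the spindle checkpoint. The count of falling members was 7 without control replicate 1, 13 without control replicate 2 and 19 without 6-day replicate 2.

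Homologous recombination and Fanconi anaemia genes, which repair broken or crosslinked DNA in S and G2, fell in 13 of 25 members with 1 rising. FANCA had 70.0 and 77.9 CPM in the control, 39.4 and 42.2 at 72 hours and 31.6 and 28.7 at 6 days (-1.29, SE 0.17, edgeR adjusted p = 0.00103). EXO1, RAD54L and BLM fell by 0.95 to 1.14 and BRCA1 by 0.63, while BRCA2 stood at 51.8 and 44.7 CPM against 50.3 and 47.4 (0.02). FANCM, the translocase that recruits the Fanconi core complex, rose by 0.56 (edgeR adjusted p = 0.0494), a call kept in 1 of the 4 fits with a library left out. The count of falling members was 4 without either control replicate and 8 without 6-day replicate 2.

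Among 12 lamina and HMG genes, 5 fell and 0 rose. LMNB1 (lamin B1) had 352 and 348 CPM in the control, 241 and 248 at 72 hours and 207 and 121 at 6 days, so the 6-day libraries were the lowest of the 6 but also the farthest apart (-1.10, SE 0.21, edgeR adjusted p = 0.00608). At 72 hours the log2 fold change of LMNB1 was -0.52 (edgeR adjusted p = 0.192). Its direct difference between 6 days and 72 hours, -0.58 on the log2 scale, was not called (edgeR adjusted p = 0.517). HMGN2, HMGB2 and HMGA1, which encode architectural chromatin proteins, fell by 1.22, 1.10 and 0.90, and LMNA had a log2 fold change of -0.24. The count of falling members was 1 without control replicate 1, 2 without control replicate 2 and 3 without 6-day replicate 2, and it was 8 with the GC correction.

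To show what these falling genes carry next to their start sites, promoters were taken from RefSeq (GRCh38.p14, 250 bases before and 50 after the start) and searched on both strands. An E2F-type match was the sequence TTGGCGC, or with other middle letters the sequence TTCGCGC, or else the sequence TTCCCGC. The cell cycle homology region (CHR) was searched as TTTGAA. The box CCAAT was searched too, and its reverse complement can overlap the first E2F-type sequence. An E2F-type match was found in 31 of 43 DNA replication promoters (72.1%), 14 of 22 of homologous recombination (63.6%) and 15 of 49 of mitosis (30.6%), against 16.4% of the 12389 genes of the table with a promoter and 11.2% of all 27305 promoters of the reference. A CHR match was found in 36 of 49 mitosis promoters (73.5%), but in 2 of 43 for DNA replication (4.65%), against 10.7% and 15.4%. CCAAT was present in 43 of 52 histone promoters (82.7%) and 38 of 49 of mitosis (77.6%), against 36% and 35.7%. Over all DEGs, an E2F-type match was found for 23.4% of down-regulated and 12.2% of up-regulated genes, and a CHR match for 14.1% and 10.2%. Within DNA replication the E2F-type match was present for 22 of 29 falling and 9 of 14 uncalled genes. Within mitosis the CHR match was present for 26 of 35 falling and 10 of 14 uncalled genes. The E2F-type match in mitosis was present for 9 of 35 and 6 of 14. In homologous recombination it was present for 9 of 10 falling and 5 of 11 uncalled genes. For histones the CHR match was present for 18 of 42 falling and 2 of 10 uncalled genes. The split by call thus differed between lists, and some uncalled members of each carried these letters. A match is only a description of the sequence.

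The stretch of 120 bases before the start is shown for 5 falling genes, 5′ to 3′ on the gene's strand (minus in all 5), as examples of promoters with an E2F-type or CHR match. CDC25A, of the mitosis list, has no CHR match, and HIST1H4D has no CCAAT. Capitals mark E2F-type and CHR matches, and CCAAT is left in lower case. The positions are chr12:56752324-56752443 (PRIM1), chr20:37095998-37096117 (RBL1), chr3:48188418-48188537 (CDC25A), chr10:128126424-128126543 (MKI67) and chr6:26189113-26189232 (HIST1H4D, now named H4C4).
PRIM1: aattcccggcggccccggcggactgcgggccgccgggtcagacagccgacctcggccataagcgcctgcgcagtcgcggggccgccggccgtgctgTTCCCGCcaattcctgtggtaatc
RBL1: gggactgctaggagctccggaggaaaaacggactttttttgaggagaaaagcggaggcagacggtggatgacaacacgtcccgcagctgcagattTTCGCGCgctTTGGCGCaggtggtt
CDC25A: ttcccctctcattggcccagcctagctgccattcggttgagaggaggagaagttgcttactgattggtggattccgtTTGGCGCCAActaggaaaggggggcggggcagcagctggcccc
MKI67: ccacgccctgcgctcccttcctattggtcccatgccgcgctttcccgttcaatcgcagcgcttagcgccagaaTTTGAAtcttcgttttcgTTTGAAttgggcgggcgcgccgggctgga
HIST1H4D: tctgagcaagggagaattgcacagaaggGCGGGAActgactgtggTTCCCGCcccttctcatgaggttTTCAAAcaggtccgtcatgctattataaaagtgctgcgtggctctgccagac
PRIM1 has a single E2F-type match that starts 24 bases before the start, RBL1 has a pair at 25 and 15 bases, and CDC25A has 2 that overlap on opposite strands at 43 and 40 bases. MKI67 has 2 CHR matches, at 47 and 29 bases, and no E2F-type match in this window, and HIST1H4D has 2 E2F-type matches, at 92 bases on the opposite strand and at 75 bases, and a CHR match on the opposite strand at 52 bases.

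Lysosomal and autophagy genes had the highest share of rising members, with 32 of 58 up-regulated (55.2%, against 8.83% of all genes), 0 down-regulated and a median log2 fold change of 0.65. Their summed level was 5753 and 5390 CPM in the control, 8210 and 8065 at 72 hours, and 9163 and 9321 at 6 days, and the 3 groups did not overlap. Lysosomes break down macromolecules with acid hydrolases, and the vacuolar ATPase (V-ATPase) pumps the protons that acidify them. Up-regulated members were spread over proteases (8 of 12), other hydrolases and their activators (13 of 23), membrane proteins (4 of 6), the V-ATPase (4 of 8) and autophagy with the TFEB family (3 of 9).

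The protease gene CTSF had 19.3 and 19.9 CPM in the control, 38.0 and 40.4 at 72 hours and 59.5 and 57.1 at 6 days (1.57, SE 0.20, edgeR adjusted p = 0.000874). CTSO, another cathepsin gene, went from 3.96 and 2.99 to 11.6 and 9.13 CPM (1.58, SE 0.23, edgeR adjusted p = 0.00144). Both stood apart from the control in every treated library. CTSS and CTSD, with log2 fold changes of 1.58 and 1.56, were low (at most 0.394 and 0.798 CPM in the control) and were called in 1 of the 4 fits with a library left out. ASAH1, the acid ceramidase, was the most abundant riser of the list, with 935 and 922 CPM in the control and 2151 and 1970 at 6 days (1.15, SE 0.15, edgeR adjusted p = 0.000928). NPC2 (cholesterol export), ATP6AP2 (V-ATPase accessory), SMPD1 (acid sphingomyelinase), MCOLN1 (a lysosomal calcium channel) and GAA (acid glucosidase) rose by 1.12 to 1.39.

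TFE3, a transcription factor of lysosomal genes, rose by 0.64 (edgeR adjusted p = 0.0425), and its relative TFEB had 12.8 and 13.8 CPM against 16 and 20.4 (0.46, edgeR adjusted p = 0.225). GLB1, whose product gives the beta-galactosidase activity used to stain senescent cells, had 66.0 and 65.2 CPM against 88.5 and 83.7 (0.39, edgeR adjusted p = 0.0869), and the autophagy receptor SQSTM1 a log2 fold change of 0.19. The count of rising members was 12 without control replicate 1, 6 without control replicate 2 and 18 without 6-day replicate 2.

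The E-box TCACGTG, to which TFEB and TFE3 can bind, was searched after the lysosomal rise had been seen. It was present in 9 of 40 promoters of the list (22.5%), 6 of 22 of its risers and 3 of 18 of its uncalled members, against 5.17% of the table's genes and 3.82% of all promoters. For all up-regulated DEGs the share was 6.51%, and for down-regulated DEGs 5.52%. The 120 bases before the start of MCOLN1 (chr19:7522504-7522623, plus strand) and GAA (chr17:80101461-80101580, plus strand) are shown in the same build because each holds 2 copies, in capitals, that read as the motif on both strands.
MCOLN1: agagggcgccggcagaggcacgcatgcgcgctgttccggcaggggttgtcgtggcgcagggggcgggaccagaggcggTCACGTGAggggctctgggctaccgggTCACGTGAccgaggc
GAA: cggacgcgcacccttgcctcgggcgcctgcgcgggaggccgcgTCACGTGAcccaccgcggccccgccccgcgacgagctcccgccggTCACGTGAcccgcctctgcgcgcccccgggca

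Genes of growth arrest, including targets of FOXO transcription factors, rose in 13 of 31 members (41.9%) and fell in 0. YPEL5, of a family linked to quiescence, had 20 CPM in both controls, 48.7 and 49.4 at 72 hours and 62.4 and 72.4 at 6 days (1.75, SE 0.16, edgeR adjusted p = 0.000250). TXNIP, the inhibitor of thioredoxin and glucose uptake, went from 15 and 11.4 to 43.1 and 63.5 CPM (2.01, SE 0.28, edgeR adjusted p = 0.00118). MXD4, a MAX-binding antagonist of MYC, went from 38.3 and 34.7 to 104 and 102 CPM (1.50, SE 0.25, edgeR adjusted p = 0.00304). The 6-day libraries of these genes lay above every control library by a wide margin. CITED2, TOB1, FOXO1, SOD2, MXI1, BTG2 and CCNG2 rose by 0.75 to 1.30, while GAS5, KLF6, FOXO3 and BTG1 had log2 fold changes between -0.05 and 0.20. The count of rising members was 6 and 4 without control replicates 1 and 2.

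**Figure D3:**
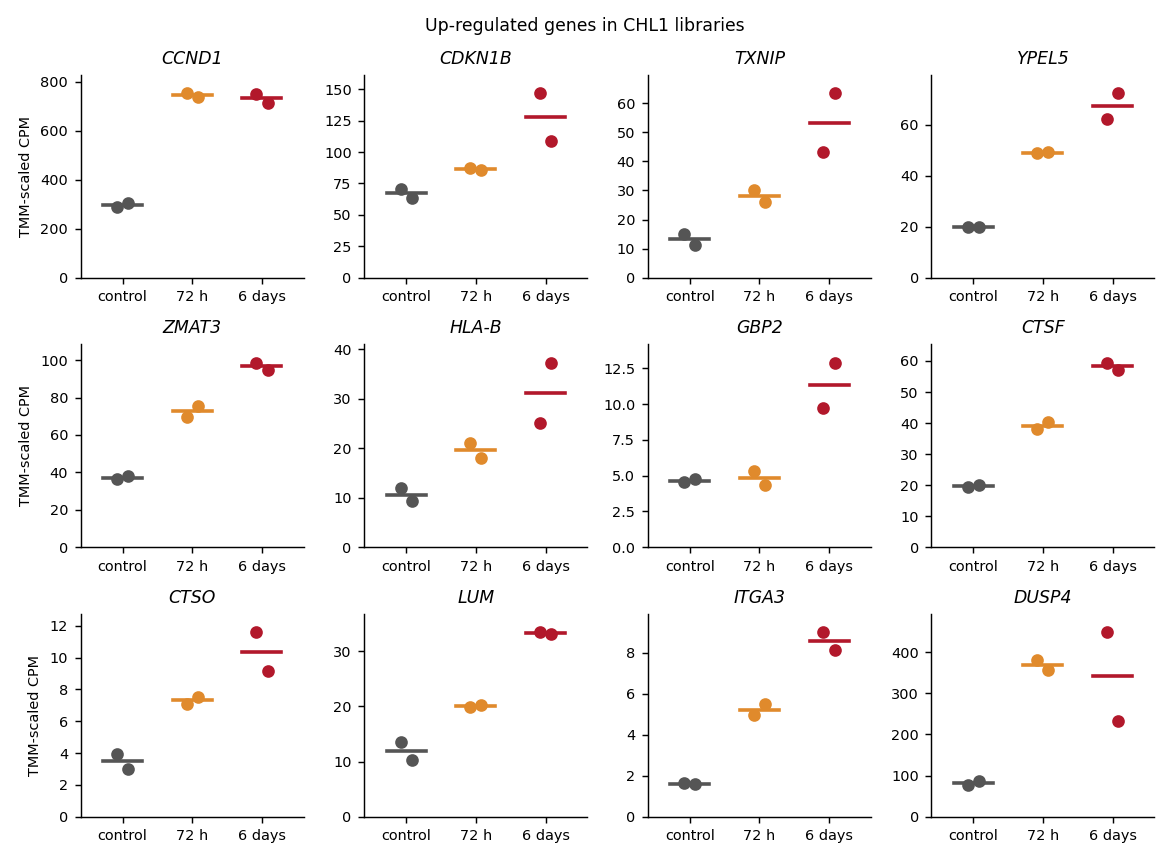
TMM-scaled CPM (linear axes from 0) of 12 up-regulated genes in each CHL1 library, with points for the 2 replicates and a line at their mean, for control (grey), 72 hours (orange) and 6 days (red) of palbociclib. CTSF, LUM and ITGA3 are higher at 6 days than at 72 hours in both replicates, while CCND1 is at a like level at both times and the 6-day libraries of DUSP4 lie at 449 and 233 CPM.

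Of 25 measured targets of p53, which is mutant in CHL1, 4 rose and 0 fell (16%), and the classical targets CDKN1A, MDM2, BAX and SESN1 had log2 fold changes between -0.19 and 0.19. The 4 risers were PERP (135 and 131 against 472 and 319 CPM, 1.57), ZMAT3 (36.3 and 38.1 against 98.7 and 94.5 CPM, 1.38), the ribonucleotide reductase gene RRM2B (1.02) and the antiproliferative BTG2 (0.78), with edgeR adjusted p-values of 0.00145, 0.000427, 0.00287 and 0.0127. As in every DEG at 6 days, no library of these genes crossed between the groups. Without control replicate 2 there were 2 risers.

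Secretory factors known from senescent cells did not move as a group, with 5 of 36 up-regulated and 3 down-regulated. FGF2 fell from 5.27 and 6.83 to 1.80 and 1.50 CPM (-1.87, SE 0.24, edgeR adjusted p = 0.000884), IGFBP7 by 0.89 and TGFB2 by 0.75. IGFBP4, which binds insulin-like growth factors, rose from 14.6 and 11.6 to 26.0 and 34.3 CPM (1.20, SE 0.20, edgeR adjusted p = 0.00269), and the plasminogen activator gene PLAT (1.20) and VEGFA (0.67) rose too. IL8 rose from 0.0638 and 0.0985 CPM, which is 2 and 3 reads, to 0.971 and 0.617 (edgeR adjusted p = 0.00546). IGFBP3, with 0 reads in the control, was at least 2.74-fold higher than 3 reads per control library would give (edgeR adjusted p = 0.0214). It had 5 and 8 reads at 6 days, and its call was lost with DESeq2. IL6 stood at 20.3 and 14.6 CPM against 20.6 and 18.7, and CXCL1 and CCL2 were not called. Without control replicate 1, control replicate 2 and 6-day replicate 2 there were 2, 0 and 2 risers, and 1 faller without either control replicate.

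MHC class I presentation genes, which display peptides to T cells, rose in 6 of 19 members and fell in 0. HLA-B had 11.9 and 9.33 CPM in the control, 21.1 and 18 at 72 hours and 25 and 37.3 at 6 days (1.55, SE 0.23, edgeR adjusted p = 0.00145). HLA-C went from 62.4 and 51.2 to 110 and 125 CPM (1.05, SE 0.21, edgeR adjusted p = 0.00625), and HLA-E, HLA-F and the peptide-loading factor TAPBP rose by 0.62 to 0.92. B2M had 177 and 155 against 253 and 244 CPM (0.58, edgeR adjusted p = 0.0754), and the immunoproteasome genes PSMB8 and PSMB9 had -0.19 and -0.65. HLA genes are alike in sequence and vary between people, so reads could have been lost or shared between them. The count of risers was 3, 1 and 3 without control replicate 1, control replicate 2 and 6-day replicate 2.

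Interferon-stimulated genes rose in 6 of 38 members and fell in 0. GBP2, a guanylate-binding protein, had 4.56 and 4.76 CPM in the control, 5.34 and 4.35 at 72 hours and 9.71 and 12.9 at 6 days (1.28, SE 0.22, edgeR adjusted p = 0.00318), so that the 6-day libraries stood above all others. GBP1, RSAD2, CMPK2 and IFIT5 rose by 0.68 to 1.37, and STAT2, a subunit of the interferon-activated factor, by 1.21 (37.8 and 40.8 against 82.8 and 99.9 CPM). ISG15, MX1, OASL and IFIH1 had log2 fold changes between 0.03 and 0.45, and none was called. Without control replicate 2 there were 3 risers, without the PRMT5i libraries 10, and with the GC correction 11 (8 uncorrected, over those genes with a GC value).

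Melanocyte markers were mixed in the control itself. MITF (61.2 and 66.5 CPM), PAX3 (124 and 140), DCT (88.8 and 65.2) and OCA2 (378 and 515) were present, while TYR and KIT stood at 3 reads or fewer per library and PMEL and TYRP1 at about 1 CPM or less. The members SOX10 and MLANA, were not analysed here. After 6 days PAX3 fell by 0.56 (edgeR adjusted p = 0.0299) and TYRP1, a melanin synthesis enzyme, rose to 2.91 and 2.16 CPM (1.59, SE 0.36, edgeR adjusted p = 0.0116), each called in 1 of the 4 fits with a library left out. MITF was not called (0.26 on the log2 scale, edgeR adjusted p = 0.321). DCT had 33.7 and 33.5 CPM at 72 hours, a fall of 1.20 (edgeR adjusted p = 0.0101), and 86.5 and 58.4 at 6 days (-0.09, edgeR adjusted p = 0.831). Its direct difference between 6 days and 72 hours, 1.11 on the log2 scale, was not called (edgeR adjusted p = 0.16).

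Of 12 measured markers of other cell types, KRT5 and PDGFRA had 0 reads in the libraries compared. The summed level of the list was 11.97 and 11.62 CPM in the control and 21.57 and 22.88 at 6 days. PTPRC, the leukocyte antigen CD45, made up most of it and rose from 7.18 and 6.86 to 15.7 and 15.6 CPM (1.15, SE 0.20, edgeR adjusted p = 0.00318), while CD14 and LYZ stayed below 0.5 CPM. VWF rose from at most 1 read per control library to 0.359 and 0.705 CPM (edgeR adjusted p = 0.00733). Neither rise was called without control replicate 2, and the part of other cells in these results was not tested.

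Matrix genes rose in 9 of 47 members, with 1 falling. LUM (lumican) had 13.5 and 10.3 CPM in the control, 19.9 and 20.2 at 72 hours and 33.5 and 33.2 at 6 days (1.48, SE 0.19, edgeR adjusted p = 0.000925). COL5A1 went from 26.8 and 23.7 to 61.9 and 91.3 CPM (1.60, SE 0.29, edgeR adjusted p = 0.00392) and COL7A1 from 4.37 and 5.19 to 11.3 and 16.1 (1.51). COL3A1 was called with at most 1 read per control library and 0.252 and 0.309 CPM at 6 days, FBN2 (fibrillin 2) fell by 1.48, and 0 of 11 laminin and nidogen genes were called. The number of risers was 3, 1 and 3 without control replicate 1, control replicate 2 and 6-day replicate 2.

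Integrins, the receptors for matrix, changed in both directions. ITGA3, a laminin receptor subunit, had 1.66 and 1.58 CPM in the control, 4.96 and 5.51 at 72 hours and 9.02 and 8.16 at 6 days (2.41, SE 0.24, edgeR adjusted p = 0.000330). ITGA7 rose by 0.96, and ITGB3, ITGB7 and ITGA9 fell by 1.27, 0.86 and 0.85, with 14 of 19 not called. Without control replicate 1 or 2 there were 0 fallers and 1 riser, and without 6-day replicate 2 there were 2 fallers and 1 riser. With the GC correction 5 fell.

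Among genes known from dedifferentiated, invasive melanoma, 5 of 24 rose and 4 fell, so the list had no common direction. NGFR (0.319 and 0.0985 against 0.683 and 1.63 CPM), JUN, SNAI2 and TGFBI rose by 1.06 to 2.41. WNT5A, at 0 reads in the control, was at least 3.79-fold higher than 3 reads per control library would give (edgeR adjusted p = 0.0114). It had 7 and 11 reads at 6 days, and its call was lost with DESeq2. The calls of NGFR and JUN were lost in the fit of all 18 libraries, and that of JUN also with limma voom and with a filter of at least 1 CPM in 2 libraries. AXL, VIM and ROR2 were among the 4 that fell, ROR2 from 7.24 and 17.9 to 4.42 and 0.705 CPM, where the replicates differ as much as the groups. YAP and TEAD genes likewise had 5 of 29 up and 5 down, with MYOF rising by 1.52 and the transcription factor TEAD4 falling from 23.2 and 22.9 to 8.48 and 8.95 CPM (-1.40, SE 0.20, edgeR adjusted p = 0.00146). Without control replicate 1, control replicate 2 and 6-day replicate 2, the first list had 2 risers each time and 1, 0 and 1 fallers, and the second had 0, 0 and 1 risers and 1 faller each time. Without 6-day replicate 1 there were 2 fallers in each.

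Genes of the MAPK feedback list rose in 4 of 22 members and fell in 3. The list holds DUSP, SPRY and SPRED genes, which damp the pathway, but also genes such as EGR1, FOS and CCND1 that are not feedback inhibitors. Its risers include CCND1, already counted among the RB and E2F regulators. DUSP4, a phosphatase of MAP kinases, had 77.7 and 86.3 CPM in the control, 381 and 356 at 72 hours and 449 and 233 at 6 days (2.06, SE 0.25, edgeR adjusted p = 0.000706). DUSP6 and DUSP5 rose by 0.85 and 0.81, and EGR1, SPRED2 and SPRY1 fell by 2.36, 0.83 and 0.92, while FOS, ETV5 and SPRY4 were not called. EGR1 differed between the controls, with 7.18 and 2.79 CPM against 1.37 and 0.529 at 6 days. With 1 library left out, its log2 fold change ranged from -3.23 to -1.52 and that of SPRY1 from -1.32 to -0.63. The EGR1 call was lost with limma voom and the SPRY1 call in the fit of all 18 libraries. Of the EGF family, the neuregulin genes NRG1 (652 and 706 against 378 and 270 CPM, -1.07) and NRG3 (15.7 and 18 against 1.73 and 3.75 CPM, -2.64) and EPGN (-1.85) fell, and EGF rose from 1.76 and 1.54 to 3.92 and 5.25 CPM (1.47), with edgeR adjusted p-values of 0.00280, 0.000512, 0.00630 and 0.00303. The receptors EGFR, ERBB2 and ERBB3 were not called. Without control replicate 2 there were 2 risers among the MAPK genes, and 2 fallers and 0 risers in the EGF family, and without the PRMT5i libraries 5 EGF family genes fell. Only 1 MAPK gene fell without either control replicate or without 6-day replicate 2.

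In oxidative phosphorylation 0 of 37 genes were called in either direction, with a median log2 fold change of 0.05, and 2 of 37 had an unadjusted p below 0.05 in edgeR. Among 32 nucleolar genes 4 fell (FBL, NPM1, NOP58 and UTP20, by 0.59 to 0.90) and 0 rose, and MYC had 131 and 115 CPM against 135 and 115. SR proteins and hnRNPs fell in 7 of 35 members, led by HNRNPD (274 and 237 against 150 and 127 CPM, -0.88), and the snRNP genes SNRPD1, SNRPG and SNRPA fell by 0.64 to 0.84, with PRMT5 at -0.27 and not called. These counts depended on the libraries fitted, and without control replicate 1, control replicate 2 and 6-day replicate 2 the nucleolar count was 0, 1 and 0, the SR protein and hnRNP count 0, 0 and 2, and the snRNP count 0, 1 and 0. Without 6-day replicate 1 these counts were 5, 12 and 1. They were higher, at 8, 15 and 7, without the PRMT5i libraries, and 6, 15 and 6 with the GC correction (uncorrected, over those genes with a GC value, 3, 8 and 3).

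Lipid and antioxidant genes held single large changes. TM7SF2, a sterol reductase, rose by 1.30 (edgeR adjusted p = 0.00318), while ELOVL6, a fatty acid elongase, fell from 66.3 and 77.1 to 32.0 and 29.1 CPM (-1.23, SE 0.16, edgeR adjusted p = 0.000931). SQLE and FASN had log2 fold changes of -0.07 and -0.39 and were not called, and 4 of 32 in the list rose and 2 fell. AKR1B10, an aldo-keto reductase, was an exception among the NRF2 targets, of which 2 of 30 rose and 2 (PIR, NQO1) fell. It went from 1.69 and 1.64 CPM in the control to 5.55 and 5.11 at 72 hours and 24.1 and 17.6 at 6 days (3.64, SE 0.24, edgeR adjusted p = 3.42e-05). Without control replicate 1, the lipid list had 3 risers and 1 faller and the NRF2 list 1 and 0. Without control replicate 2 there was 1 riser in each and 1 and 0 fallers, and without 6-day replicate 2 the NRF2 list had 1 of each. Without the PRMT5i libraries 4 lipid and 6 NRF2 genes fell, and with the GC correction 6 and 4.

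The 12 largest rises and the 12 largest falls of DEGs averaging at least 1 CPM, clone-named genes such as AL592188.6 left out, include genes outside the lists. TNFRSF9 (4-1BB, a co-stimulatory receptor) rose from 0.223 and 0.164 CPM to 3.45 and 2.43 (3.90, SE 0.38, edgeR adjusted p = 0.000280), and FCRLA, an Fc receptor-like protein of the endoplasmic reticulum, from 2.20 and 1.44 to 24.5 and 23.8 (3.72, SE 0.23, edgeR adjusted p = 3.42e-05). SEMA3C, a secreted guidance factor, had 2.84 and 2.10 CPM in the control, 5.17 and 4.78 at 72 hours and 14.9 and 32.4 at 6 days (3.25, SE 0.34, edgeR adjusted p = 0.000331). Separation of both 6-day libraries from both controls was a condition of this choice. OTOF (otoferlin), PRODH (proline dehydrogenase), BHLHE41 (a circadian repressor), KLHL31, MIR137HG (the host gene of miR-137), HKDC1 (a hexokinase), LINC00565 and MEGF6 rose by 3.08 to 3.81, from levels below 1 CPM in the control.

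Among the falls, GPC6, a glypican of the cell surface, had 110 and 161 CPM in the control, 35.3 and 49.1 at 72 hours and 24.5 and 16.2 at 6 days (-2.73, SE 0.27, edgeR adjusted p = 0.000280). NELL1, a secreted glycoprotein, went from 15.9 and 26.3 to 4.31 and 1.98 CPM (-2.72, SE 0.36, edgeR adjusted p = 0.000931). CREB3L3 (2.01 and 2.86 against 0.539 and 0.0441 CPM), GABRB2 (4.53 and 8.21 against 1.44 and 0.132), RAB31 (5.11 and 8.54 against 1.65 and 0.441) and STAC (12.8 and 22.4 against 4.92 and 1.01) fell by 2.53 to 2.95, in each case with 6-day replicate 2 far below replicate 1. Their log2 fold changes without 6-day replicate 2 shrank to -2.16, -2.14, -2.04 and -1.83 in that order, the call for GABRB2 being lost, and without 6-day replicate 1 reached -5.65, -5.54, -3.94 and -4.11. Without control replicate 2, CREB3L3, GABRB2 and STAC were not called. The pseudogene OR4F13P fell by 2.89.

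**Figure D4:**
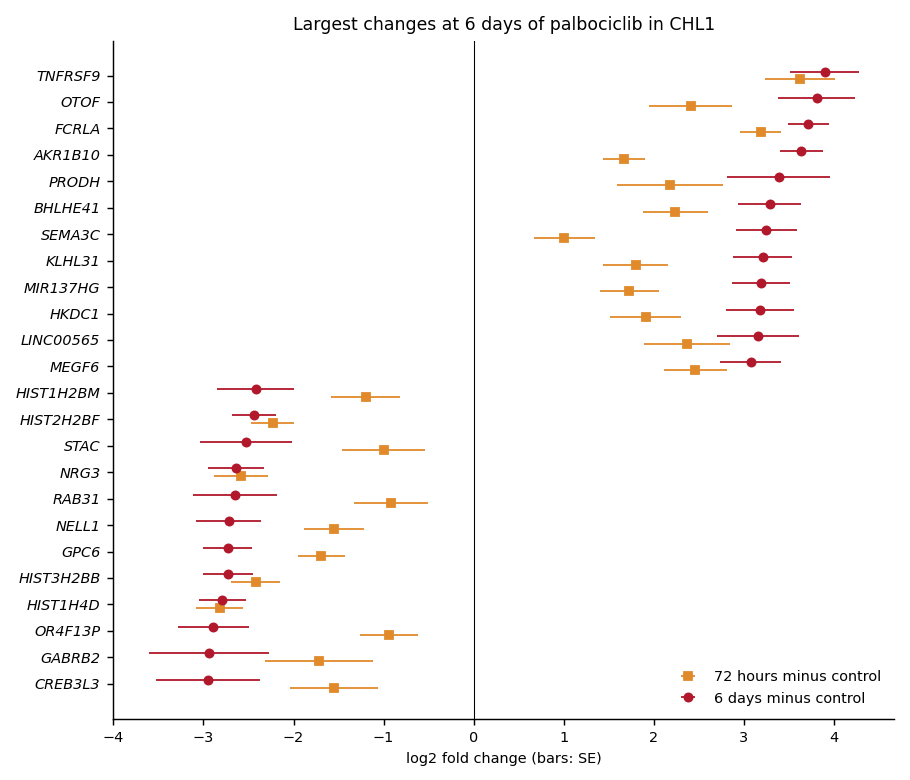
Log2 fold changes of the 12 largest rises and 12 largest falls, of DEGs averaging at least 1 CPM and without clone names, at 6 days (red circles) and at 72 hours (orange squares) of palbociclib, each against the same control; bars are standard errors. HIST1H4D is at -2.82 and -2.79 and TNFRSF9 at 3.63 and 3.90 at the 2 times, whereas SEMA3C goes from 1.01 at 72 hours to 3.25 at 6 days.

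At 72 hours, 1032 genes were DEGs against the same control, or 4.98% of those tested (2.27% up, 2.72% down). Far fewer passed when 1 control or 72-hour library was left out. In fits of only the 4 libraries compared, the DEGs numbered 4202 at 72 hours and 3842 at 6 days. The order of the counts at the 2 times thus depended on which libraries shared the estimate of spread. The list counts at 72 hours were not refitted in this way. Side by side, the falling lists were close at both times, with 48 histone genes, 21 replication genes and 33 mitotic genes down-regulated at 72 hours and medians of -1.45, -0.63 and -0.74, against 50, 30 and 38 genes and -1.72, -0.70 and -0.75 at 6 days. The lysosome list had 11 risers and a median of 0.45 at 72 hours against 32 and 0.65, and growth arrest genes 4 against 13. Since both times share the control libraries, the likeness of these values is not independent evidence. In the direct test of 6 days against 72 hours, 3 genes passed (0.0145%), namely AKR1B10, EDIL3 and AL592188.6, and 1634 had an unadjusted p below 0.05. EDIL3, a secreted integrin ligand, had 14.8 and 12.9 CPM in the control, 16.3 and 17.6 at 72 hours and 52.4 and 62.7 at 6 days. In that test 51 genes passed without 6-day replicate 1 and 0 without 72-hour replicate 2 (804 at an unadjusted p below 0.05). For the other genes a larger change at 6 days than at 72 hours was not shown.

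**Figure D5:**
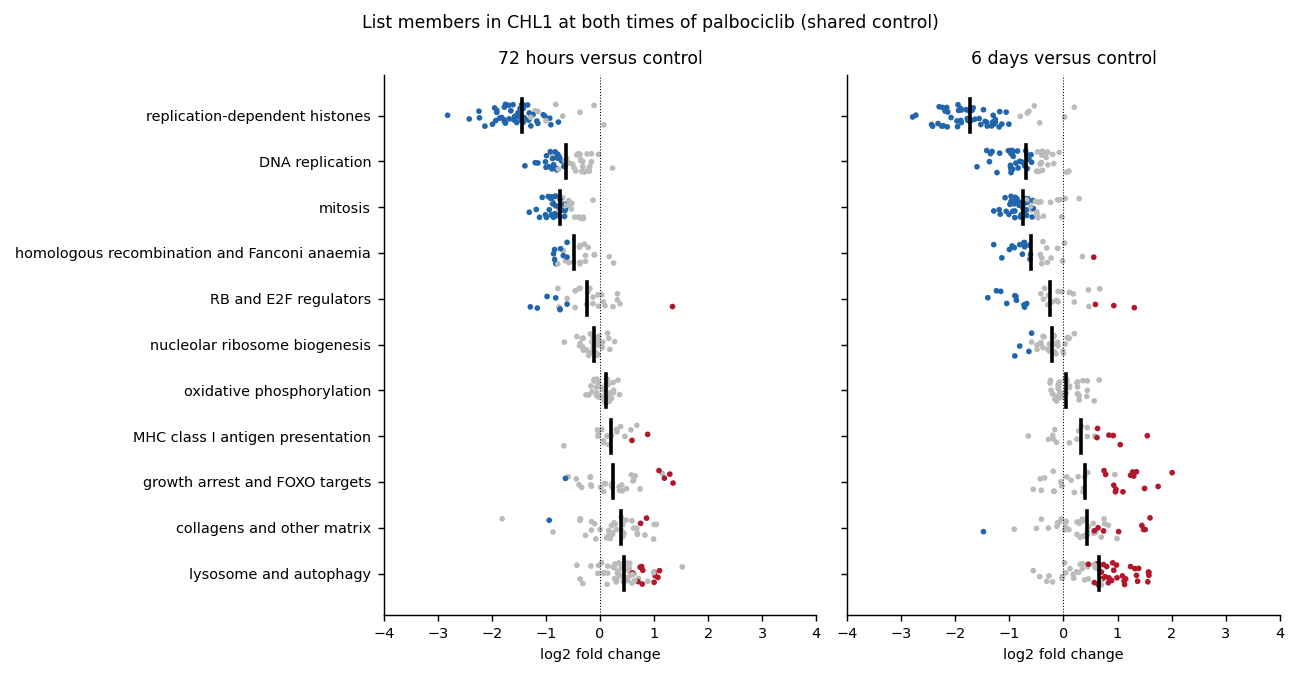
Log2 fold change of each member of 11 gene lists at 72 hours (left) and 6 days (right) of palbociclib against the shared control, with DEGs in blue (down) or red (up), other members in grey and the list median as a black bar; members at 3 reads or fewer per library in a group are not drawn. The medians run from -1.72 for replication-dependent histones to 0.65 for the lysosome list at 6 days.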

How the data were processed

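RNA from CHL1 cells was sequenced after poly-A selection. Per the labels, the authors ran FastQC 0.11.6, Picard 2.17.3 and SAMtools 1.18, aligned reads to GRCh37 with HISAT2 2.0.4, counted them per gene with HTSeq 0.11.2 and filtered low genes for edgeR. The deposited values are whole-number counts, not normalised, for 20705 genes. The methods of the study state default settings for HTSeq, which count by strand. Whether the libraries kept strand is not given in the sources used here.

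All 8 CHL1 libraries (4 groups of 2) were fitted in edgeR 4.0.16 (R 4.3.3) with TMM scaling, quasi-likelihood tests and Benjamini-Hochberg adjustment over all genes, and DEGs had an adjusted p below 0.05. Fold changes use a prior count of 0.125, and no fold is given for genes at 3 reads or fewer per control library, only a lower bound where both controls had 0 reads. Precision is limited by 2 libraries a group and by totals of 20509245 to 37424081 reads on genes. Alternatives were DESeq2 1.42.0, limma 3.58.1 (voom), other scalings, filters and sample sets, a replicate block, a GC correction and leaving out each library.

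The comparison and the 27 gene lists were chosen with earlier results of these data known. Genes were named by rule: the RB and E2F regulators, the 12 largest rises and falls averaging at least 1 CPM (clone names left out), the 4 largest DEGs of each list with up to 2 against its direction, DEGs between the times, and cell type markers. Other list members named as examples were chosen after their values were seen, as was the E-box. Some list members are counted but not reported here by name.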

Additional observations from a re-analysis of the deposited data

Results flagged for a closer look

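The levels of 3 genes differed between 6 days and 72 hours of palbociclib in the direct test of the times (edgeR, adjusted over all genes). AL592188.6 had 10.5 and 3.62 CPM at 72 hours and 59.6 and 126 at 6 days, a log2 difference of 3.71 (adjusted p = 0.0458). AKR1B10 had 5.55 and 5.11 CPM at 72 hours and 24.1 and 17.6 at 6 days, a difference of 1.97 (adjusted p = 0.00938). EDIL3 had 16.3 and 17.6 CPM at 72 hours and 52.4 and 62.7 at 6 days, a difference of 1.76 (adjusted p = 0.00938). In all 3 genes both 6-day libraries lay above both 72-hour libraries.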

How the results depend on the processing

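The count of 3443 DEGs at 6 days became 1336 at an adjusted p below 0.01 and 1679 when a change of 1 or more on the log2 scale was also required, and it ranged from 631 to 2583 with 1 library left out. It lay between 2810 and 4964 in the other fits, the highest without the PRMT5i libraries, and the GC correction gave 4267 against 2810 on the same genes without it. For 6 days against 72 hours, 3 DEGs became 0 in the fit of only the 4 libraries compared (1722 at an unadjusted p below 0.05), 0 with limma voom (1757), 64 with DESeq2 and 0 to 51 with 1 library left out. For 72 hours against control, 1032 DEGs became 214 at an adjusted p below 0.01, 521 with that minimum change, 4202 with only the 4 libraries, 2098 without the PRMT5i libraries, 1675 with DESeq2, 2132 with the GC correction and 103 to 136 with 1 library left out. The cause was not tested. Of 131 named DEGs, 104 were called in each of the 12 other fits that hold them, 57 in all 4 fits with a library left out, and 0 reversed. Replicate numbers were not shown to pair the libraries (correlation of deviations 0.0378 for control and 6 days, -0.3444 for 72 hours and 6 days, 0.4575 for control and 72 hours, over 14500 genes). With the replicate block there were 3167, 0 (1639 at an unadjusted p below 0.05) and 796 DEGs in these 3 comparisons, and 4437, 1 and 2325 with the GC correction and the block, and 121 of the 131 named DEGs passed with the block alone. The crossed pairing of 72 hours and 6 days, chosen after seeing the data, gave 6 DEGs. With a filter of at least 1 CPM in 2 libraries, risers among secretory factors and dedifferentiation genes numbered 3 and 2 in place of 5 and 5.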
